A study of Homo sapiens with 6 samples.

Results

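Ribonucleotide reductase and the enzymes around it supply the deoxynucleotides (dNTPs) from which DNA is made. The 9 genes described here were chosen by name, as subunits of ribonucleotide reductase and other enzymes of dNTP supply, and all 9 were found among the 57773 Ensembl gene IDs of the deposited table. They are RRM1, RRM2 and RRM2B for the reductase, TYMS, DTYMK and DUT for thymidine nucleotides, TK1 and DCK for salvage, and SAMHD1 for dNTP breakdown. Their mRNA was measured in RPE1, an immortalised human cell line from the retinal pigment epithelium, given 2.5 µM Nutlin-3 for 24 h (3 libraries) or the solvent DMSO (3 libraries). Nutlin-3 blocks the binding of p53 by MDM2, the ubiquitin ligase that keeps p53 low. The cells carried no other stated alteration, and 1 line stands for the cell type.

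Ribonucleotide reductase turns ribonucleotides into deoxyribonucleotides. It joins a large catalytic subunit, RRM1, with a small subunit that carries a tyrosyl radical. The usual small subunit, RRM2, is made in S phase under E2F control and is broken down after S phase, while its paralogue RRM2B, also called p53R2, is a p53 target that serves DNA repair and mitochondrial DNA outside S phase. Proliferating cells also make thymidylate with TYMS and recover deoxynucleosides through TK1 and DCK, and SAMHD1 cuts dNTPs back to nucleosides.

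The libraries held between 31.6 M and 37.0 M recovered reads with Nutlin-3 and between 28.4 M and 41.1 M with DMSO. The treatment was checked on 2 p53 targets. CDKN1A, which encodes the CDK inhibitor p21, averaged 60.5 ± 2.34 RPKM with Nutlin-3 and 8.36 ± 0.463 RPKM with DMSO, and MDM2 averaged 8.46 ± 0.225 RPKM with Nutlin-3 and 2.31 ± 0.0866 RPKM with DMSO (SD, n = 3 each). Of 12 markers of the pigment epithelium, only the transcription factor gene OTX2 averaged at least 1 RPKM, 11 were under 0.5 RPKM, and TYR, DCT, TTR and RPE65 were at or near 0 in all 6 libraries. MITF was among the 11 by RPKM, yet it had between 1383 and 1905 reads per library, against between 741 and 1359 for OTX2. The epithelial keratin genes KRT8 and KRT18 and the mesenchymal genes VIM, THY1 and COL1A1 each averaged over 1 RPKM in both groups, and the blood marker PTPRC was near 0. RPKM scales the reads of a gene to its length and to the size of the library. Here the deposited RPKM fit whole reads when the length was the whole gene span, introns included, so a gene with long introns has a low RPKM for its reads. The order of levels and the shares of different genes are therefore given over exon length, except where the closing section varies the length behind the share. Whether reads in introns were counted is not known. Such reads would raise the exon-length level of a gene with long introns, and this was not tested. Where 2 genes are set against each other on the deposited RPKM, only the change of their log2 ratio with Nutlin-3 is read, not its level. Nothing in the labels tells if the 3 replicates were grown separately. The p-values therefore set the group difference only against the spread among these libraries. Part or all of that spread may be technical.

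With Nutlin-3, 7 of the 9 genes fell, RRM2B rose, and SAMHD1 did not pass the test. The test was limma on log2(RPKM + 0.5) over the 12212 genes that averaged 0.5 RPKM or more, at an adjusted p under 0.05. All 9 genes passed the filter on low values, and their median log2 change was -0.88, beside 0.02 for all genes tested. Over all genes, 51.6% were called, 22.5% downwards and 29.1% upwards. Limma voom on the recovered reads made the same 8 calls among the 9 genes, where 50.3% of 20732 genes were called, 24.3% downwards and 26% upwards. The groups did not overlap for 8 of the 9 genes, as was the case for 61.8% of all genes tested. A fall to at most 50% of the DMSO level, which 3.08% of tested genes showed, was seen for RRM2, TK1, RRM1 and DTYMK. A rise to at least 2 times the DMSO level, shown by 1.07% of tested genes, was seen for RRM2B. In bulk RNA, fewer cells in S phase and less of a transcript per cell cannot be told apart.

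**Figure D1:**
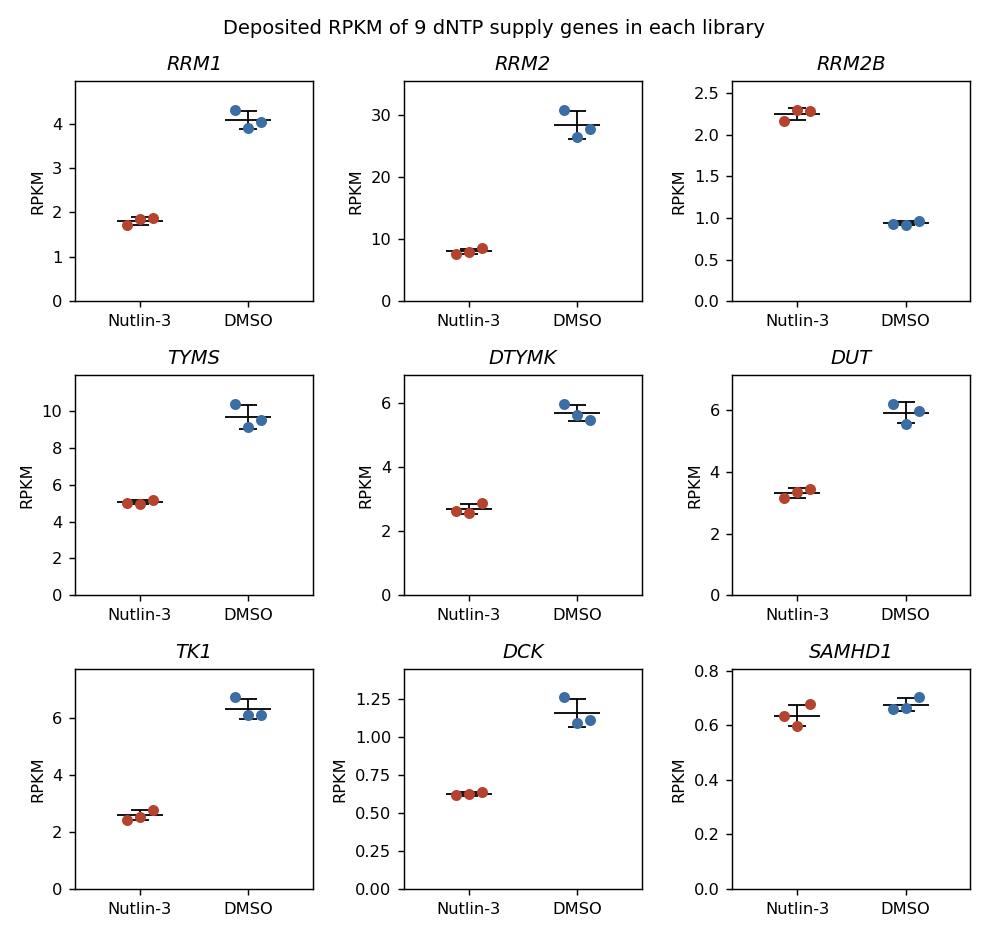
Deposited RPKM (vertical axes, each from 0) of the 9 genes in the 3 Nutlin-3 libraries (red) and the 3 DMSO libraries (blue). Points are libraries, the long line is the mean and the bars are the SD; RRM2 lies between 7.67 and 8.55 RPKM with Nutlin-3 and between 26.5 and 30.9 RPKM with DMSO, RRM2B runs the other way, and the groups overlap for SAMHD1 alone.

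RRM2 (ENSG00000171848), the S phase small subunit, had 7.67, 7.94 and 8.55 RPKM in Nutlin-3 replicates 1 to 3, against 30.9, 26.5 and 27.8 RPKM in DMSO replicates 1 to 3. Every Nutlin-3 library was far below every DMSO library, and the mean was 28.4% of the DMSO level. On log2(RPKM + 0.5) the change was -1.76 (SE 0.069, limma adjusted p = 5.61e-05), the 12th lowest of the 12212 genes tested. Between 2203 and 2585 reads per Nutlin-3 library and between 7184 and 11866 reads per DMSO library lay behind these values.

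The promoter of RRM2 is shown because the member that fell furthest carries a repeated element there. The RefSeq table (GRCh38.p14) gives 8 of the 9 genes 1 or more start sites, 13 in all, and RRM2B had no entry. In the 250 bases before 1 of the RRM2 starts, the CCAAT box, known as the binding motif of the factor NF-Y, stands 3 times in the same direction. These 3 stretches lie at chr2:10122604-10122633, chr2:10122634-10122663 and chr2:10122661-10122690 on the plus strand, with CCAAT in capitals.
RRM2 site 1: ggcaaggcgcagCCAATgggaagggtcgga
RRM2 site 2: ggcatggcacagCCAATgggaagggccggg
RRM2 site 3: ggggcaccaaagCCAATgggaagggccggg
They share the 15 bases agCCAATgggaaggg. Among 35116 RefSeq windows of 250 bases, this run was found in 2, of RRM2 and TOMM40, and RRM2 alone had it 3 times. The run was defined from the 3 RRM2 sites, so its 3 copies there were fixed by that choice. A CCAAT box, read on both strands, stood in 32% of all windows and at least 3 in 2.93%.

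RRM2B (ENSG00000048392), the p53-induced small subunit, had 2.17, 2.30 and 2.28 RPKM in Nutlin-3 replicates 1 to 3, against 0.925, 0.920 and 0.969 RPKM in DMSO replicates 1 to 3. The libraries of each group lay close together and the groups were well apart. The mean with Nutlin-3 was 2.40 times the DMSO mean. The log2 change was 0.94 (SE 0.030, limma adjusted p = 4.78e-05), the 80th highest of the genes tested. Because RRM2B has a low RPKM, the pseudocount pulls this value down, and on recovered reads limma voom gave 1.26 (SE 0.044, adjusted p = 4.83e-17).

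The paralogues thus moved in opposite directions. The log2(RPKM + 0.5) of RRM2B minus that of RRM2 was -1.61, -1.59 and -1.70 in the Nutlin-3 libraries, against -4.46, -4.25 and -4.27 in the DMSO libraries. The means differed by 2.69, with a 2-sided exact permutation p of 0.1, the smallest that 3 against 3 libraries allow. The pseudocount lowers this difference, which was 3.08 on reads per kilobase of merged exons (exact permutation p = 0.1, 2-sided). Per kilobase of merged exons, the ratio of RRM2B to RRM2 was 1.02 ± 0.0429 with Nutlin-3 and 0.121 ± 0.0101 with DMSO (SD, n = 3 each), and it was 8.44 times as large with Nutlin-3.

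Set against exon length, RRM2B made up 50.8%, 51.4% and 49.4% of the small-subunit transcripts in the Nutlin-3 libraries, against 9.87%, 11.2% and 11.3% in the DMSO libraries. The groups were far apart, and the exact permutation p was again 0.1 (2-sided). The length used for each gene moved the share. With the length of 1 principal transcript per gene, an alternative chosen after seeing the data, RRM2B made up 41.4% ± 1.02 with Nutlin-3 and 7.73% ± 0.599 with DMSO (SD, n = 3 each). So RRM2B was about level with RRM2 under merged exons and below it under principal transcripts. Exon lengths were those of GENCODE 29, where RRM2 spans 10722 bases, while its reads fit a length of 9091 bases. Any exon bases outside the counted length would make the RRM2 level too low and the RRM2B share, ratio and rank too high. This was not tested.

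The rise of RRM2B was smaller in absolute terms than the fall of RRM2. Both small subunits together came to 26.6, 27.9 and 28.8 exon-length RPKM with Nutlin-3, against 58.5, 51.0 and 53.5 exon-length RPKM with DMSO. The mean with Nutlin-3 was 0.511 of the DMSO mean, and the groups did not overlap (exact permutation p = 0.1, 2-sided). These sums are per merged exon length, and the ratio of 0.511 depends on that length. Per principal transcript, RRM2 averaged 22.4 with Nutlin-3 and 78.9 with DMSO, and RRM2B averaged 15.8 with Nutlin-3 and 6.59 with DMSO.

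**Figure D2:**
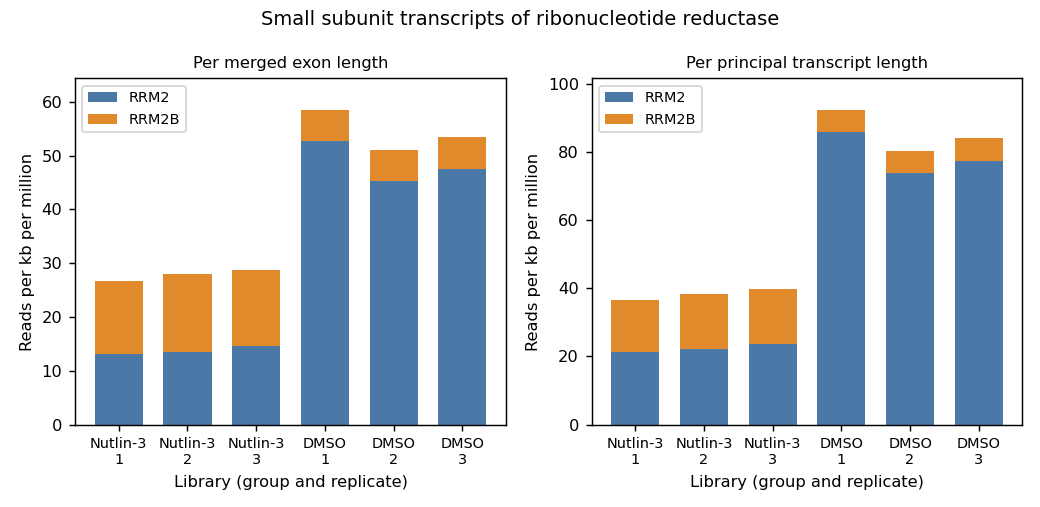
RPKM recomputed over exon length (vertical axes) of RRM2 (blue) and RRM2B (orange), stacked for each library, with Nutlin-3 replicates on the left and DMSO replicates on the right. The left panel uses merged exon length and the right panel the length of 1 principal transcript per gene; the RRM2B part is between 49.4% and 51.4% of each Nutlin-3 bar and between 9.87% and 11.3% of each DMSO bar on the left.

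RRM1 (ENSG00000167325), the large subunit shared by both forms of the enzyme, had 1.72, 1.84 and 1.88 RPKM in the Nutlin-3 libraries, against 4.31, 3.91 and 4.04 RPKM in the DMSO libraries. All Nutlin-3 libraries were lower, and the mean was 44.4% of the DMSO level (log2 change -0.99, SE 0.046, limma adjusted p = 7.09e-05). The log2 ratio of RRM2 to RRM1 was lower by 0.77 on log2(RPKM + 0.5) with Nutlin-3, and its groups did not overlap (exact permutation p = 0.1, 2-sided). Whether RRM1 kept pace with both small subunits together depended on the length. The ratio of RRM1 to their sum was 0.690 ± 0.00840 with Nutlin-3 and 0.795 ± 0.0156 with DMSO per merged exon length (exact permutation p = 0.1), but 0.682 ± 0.00916 with Nutlin-3 and 0.686 ± 0.0151 with DMSO per principal transcript (exact permutation p = 0.8; SD, n = 3 each).

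The genes of thymidine nucleotide synthesis fell as well. TYMS (ENSG00000176890), thymidylate synthase, which makes dTMP from dUMP, had 5.01, 4.96 and 5.17 RPKM with Nutlin-3, against 10.4, 9.13 and 9.56 RPKM with DMSO. The groups were separate, with a mean at 52.0% of the DMSO level and a log2 change of -0.88 (SE 0.052, limma adjusted p = 1.33e-04). DTYMK (ENSG00000168393), thymidylate kinase, which turns dTMP into dTDP, had 2.62, 2.58 and 2.87 RPKM with Nutlin-3, against 5.97, 5.60 and 5.48 RPKM with DMSO. It too had no overlap and averaged 47.3% of the DMSO level (log2 change -0.96, SE 0.049, limma adjusted p = 9.37e-05).

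DUT (ENSG00000128951), the dUTPase that keeps uracil out of DNA and yields dUMP for TYMS, had 3.14, 3.36 and 3.45 RPKM with Nutlin-3, against 6.22, 5.55 and 6.00 RPKM with DMSO. Its mean was 56.0% of the DMSO level (log2 change -0.75, SE 0.053, limma adjusted p = 2.28e-04), the smallest fall relative to the DMSO mean among the 7 genes that fell.

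In salvage, TK1 and DCK both fell. TK1 (ENSG00000167900), the cytosolic thymidine kinase of S phase, had 2.43, 2.52 and 2.78 RPKM with Nutlin-3, against 6.71, 6.08 and 6.10 RPKM with DMSO. After RRM2 it had the largest fall of the 9 genes, to 40.9% of the DMSO level (log2 change -1.14, SE 0.059, limma adjusted p = 9.16e-05). DCK (ENSG00000156136), deoxycytidine kinase, which also activates several nucleoside drugs, had 0.615, 0.624 and 0.640 RPKM with Nutlin-3, against 1.26, 1.09 and 1.11 RPKM with DMSO. The mean was 54.2% of the DMSO level, while the pseudocount held the log2 change to -0.55 (SE 0.044, limma adjusted p = 3.40e-04). On recovered reads, between 745 and 857 per Nutlin-3 library and between 1251 and 2044 per DMSO library, DCK changed by -0.89 (limma voom adjusted p = 3.40e-12).

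SAMHD1 (ENSG00000101347), the triphosphohydrolase that lowers dNTP pools, had 0.633, 0.598 and 0.677 RPKM with Nutlin-3, against 0.659, 0.664 and 0.703 RPKM with DMSO. The groups overlapped. The log2 change was -0.05 with a 95% confidence interval of -0.14 to 0.04 (limma adjusted p = 0.294), and on recovered reads it was -0.09 with an interval of -0.19 to 0.01 (limma voom adjusted p = 0.142). A fall of the size of DCK or larger lies outside both intervals. Both tests used the library sizes behind the deposited RPKM. Between 1219 and 1717 reads per library lay behind these values.

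**Figure D3:**
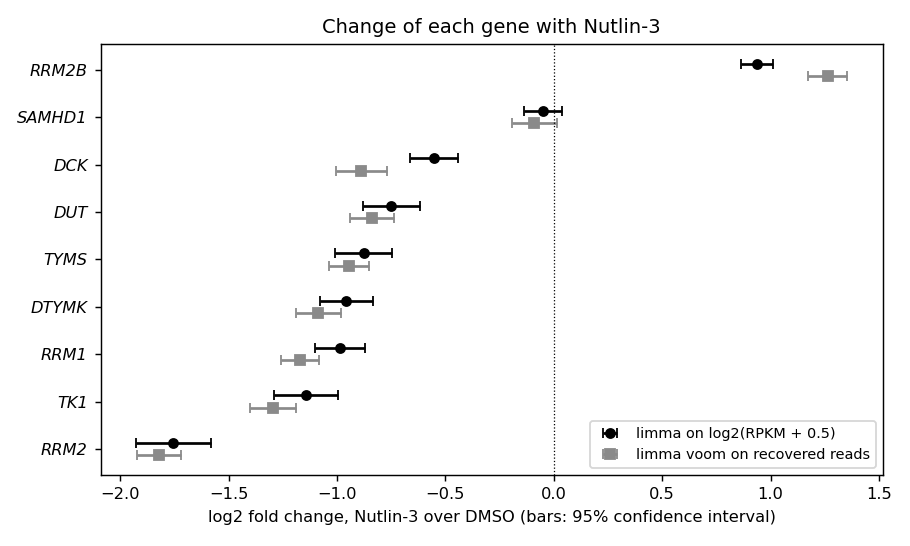
Log2 fold change of each gene with Nutlin-3 over DMSO (horizontal axis) with its 95% confidence interval, by limma on log2(RPKM + 0.5) (black circles) and by limma voom on recovered reads (grey squares), n = 3 libraries per group. RRM2B lies on the right at 0.94 and 1.26, SAMHD1 at zero within its interval, and the other 7 genes on the left, with RRM2 the farthest at -1.76 and -1.82.

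RRM2 was also set against each of the other genes. Its log2 ratio to each of the 8 others was lower with Nutlin-3 than with DMSO without overlap of the groups, with changes of -0.61 against TK1, -0.88 against TYMS, -1.01 against DUT and -1.71 against SAMHD1 on log2(RPKM + 0.5). On recovered reads these changes were -0.53, -0.88, -0.98 and -1.73. On log2(RPKM + 0.5) the 2-sided exact permutation p was 0.1 for each of the 8 comparisons, raw and after Benjamini-Hochberg adjustment, which is the smallest that this design allows. RRM2 had a lower log2 change than each of the 8 others, so the direction of these ratio changes follows from the single-gene changes. On log2(RPKM + 0.5) their size does too. The 8 comparisons all share RRM2 and are not separate evidence for its fall.

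The spread within groups was small and partly shared. The coefficient of variation of RPKM was between 2.02% and 6.99% with Nutlin-3 and between 2.85% and 7.92% with DMSO over the 9 genes. DMSO replicate 1, the deepest library, was the highest of the DMSO libraries for all 7 genes that fell, and Nutlin-3 replicate 3 was the highest of the Nutlin-3 libraries for the same 7 genes. No gene's call turned on 1 library. Without DMSO replicate 1, or any other library, RRM2 changed by between -1.80 and -1.69, RRM2B by between 0.92 and 0.96 and TYMS by between -0.92 and -0.83.

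The order of the transcript levels, as RPKM over merged exon length, differed between the groups. With Nutlin-3, TYMS was highest at 32.6 ± 0.728, followed by RRM1 at 19.2 ± 0.928 and TK1 at 18.2 ± 1.27, which overlapped, and then RRM2B at 14.0 ± 0.442, RRM2 at 13.8 ± 0.767 and DTYMK at 12.3 ± 0.716, where each overlapped the next (SD, n = 3). DUT at 11.2 ± 0.533, DCK at 7.44 ± 0.150 and SAMHD1 at 3.48 ± 0.217 followed without overlap. With DMSO, TYMS at 62.8 ± 4.27 was followed by RRM2 at 48.5 ± 3.83, TK1 at 44.5 ± 2.52 and RRM1 at 43.2 ± 2.16, of which RRM2 overlapped TK1 and TK1 overlapped RRM1. DTYMK at 26.1 ± 1.19, DUT at 19.9 ± 1.16 and DCK at 13.7 ± 1.09 came next, and RRM2B at 5.85 ± 0.167 stood 8th, above SAMHD1 at 3.70 ± 0.130. RRM2B was thus 4th with Nutlin-3 and 8th with DMSO. The order depended on the length used, and the limit on the length of RRM2 given above holds here too. Under principal transcript lengths RRM2B was 7th with Nutlin-3 and 9th with DMSO. With Nutlin-3 the order was then TYMS, RRM1, DTYMK, RRM2, TK1, DUT, RRM2B, DCK and SAMHD1, where each neighbour from RRM1 to DUT overlapped the next. With DMSO it was TYMS, RRM2, RRM1, DTYMK, TK1, DUT, DCK, SAMHD1 and RRM2B, where DTYMK overlapped TK1. TYMS was first under both lengths in both groups.

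Several of these genes have copies or neighbours that may share reads. The RRM2 pseudogenes RRM2P2 and RRM2P3 (RRM2P4 was at 0) held between 0.964% and 1.45% of the reads of RRM2 and pseudogenes together, and RRM2P3 fell as well (log2 change -1.24, limma adjusted p = 7.94e-04, on between 22 and 130 reads per library). TYMS and DUT pseudogenes held at most 0.368% and 0.335%. TYMS shares 39.2% of its exon length with ENOSF1 on the opposite strand, and whether counting used strand is not given in the sources used here. ENOSF1 averaged 0.703 ± 0.0162 RPKM with Nutlin-3 and 0.946 ± 0.0704 RPKM with DMSO, and it fell too, by less than TYMS (log2 change -0.26, limma adjusted p = 3.78e-03). For RRM2 and SAMHD1 the shared exons were 20.2% with a gene not in the table and 10.3% with TLDC2 on the opposite strand, for DUT 14.5% with DUT-AS1, and for DCK 6.17% with MOB1B on the same strand.

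The other promoters were read for the same elements. Besides CCAAT these were 4 forms of the E2F site and 2 forms of the cell cycle homology region or CHR, on both strands. The E2F forms were TTCCCGC, a second form TTCGCGC, a further form TTGCCGC, and the last form TTGGCGC. The CHR forms were TTTGAA and the alternative form TTCGAA. An E2F form stood in at least 1 window of 6 of the 8 genes with an entry, against 10.9% of all windows, a CCAAT box in 5 of 8, against 32%, and a CHR form in 3 of 8, against 14.3%. Genes with several starts had more than 1 chance to hold a motif. For each gene 1 site is given so that the elements can be compared, with the motif in capitals, at chr17:78187081-78187110 (minus strand), chr18:657603-657632, chr2:241686881-241686910 (minus strand), chr15:48332144-48332173, chr4:70993550-70993579, chr11:4094451-4094480 and chr20:36951740-36951769 (minus strand), others on the plus strand, each read 5′ to 3′ along the gene.
TK1, inverted CCAAT: ggccggctcgtgATTGGccagcacgccgtg
TYMS, inverted E2F: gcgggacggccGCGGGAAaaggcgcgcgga
DTYMK, CHR: cggccaatcccTTCGAAtttggccgaggcc
DUT, inverted E2F: gggcggggctgGCGGGAAatttcggttttg
DCK, inverted E2F: ggagcgcgcacGCGGGAAcccgcgctggag
RRM1, E2F: caagaaaaacgTTCCCGCcggttaggtttt
SAMHD1, CCAAT: ctgcgcaggaggCCAATaggctgccaatac
Exactly 2 CCAAT boxes stood in a window of TK1 and of DTYMK, which fell, and of SAMHD1, which did not pass, and 9.53% of all windows held at least 2. The match of letters is a description and shows neither a bound factor nor its part in a change.

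The genes whose profile over the 6 libraries was most like that of RRM2, by root mean square difference of centred log2(RPKM + 0.5), were CCNA2, MKI67, HMGB2, CDC20 and KIF20A. The difference was between 0.0313 and 0.0700 among 8196 candidates with a mean of at least 1 RPKM. Genes picked in this way change like their reference gene by the rule itself, so their direction is no separate evidence. CCNA2, cyclin A2, had 3.82, 4.25 and 4.37 RPKM with Nutlin-3, against 16.1, 14.4 and 14.9 RPKM with DMSO, a fall to 27.4% of the DMSO level. Most like RRM2B were GPC1, CCNG1, PHLDA3, FBXO32 and TGFB2, with differences between 0.0172 and 0.0363. CCNG1, cyclin G1, a known p53 target, averaged 25.5 ± 0.634 RPKM with Nutlin-3 and 13.5 ± 0.0914 RPKM with DMSO (SD, n = 3 each).

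Around the 9 genes, 59 others of dNTP supply were listed by role, of which 58 had an ID and 41 were tested. Of these, 13 rose, 14 fell and 14 did not pass, with a median log2 change of 0.01, beside 0.02 for all genes tested, where 29.1% rose and 22.5% fell. In the thymidylate and folate cycle 4 of 7 tested genes fell and 1 rose, with a median of -0.42. SHMT1 and SHMT2, serine hydroxymethyltransferases, which supply the one-carbon unit that TYMS uses, both fell. SHMT1 averaged 0.710 ± 0.0149 RPKM with Nutlin-3 and 1.16 ± 0.0139 RPKM with DMSO, and SHMT2 averaged 16.4 ± 0.642 RPKM with Nutlin-3 and 22.2 ± 0.676 RPKM with DMSO (SD, n = 3 each). Their log2 changes were -0.45 and -0.43 (limma adjusted p = 8.62e-05 and 5.92e-04). DCTD, dCMP deaminase, rose by 0.12 (limma adjusted p = 0.0194), a call lost without Nutlin-3 replicate 2 or 3 or DMSO replicate 2 (adjusted p = 0.0732, 0.0537 and 0.0521).

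Enzymes that cleanse the nucleotide pool fell in 4 of 6 cases, with 1 rise and a median of -0.38, beside 22.5% falling and 29.1% rising over all genes tested. NUDT1, also called MTH1, which removes oxidised purine nucleotides, averaged 0.699 ± 0.0397 RPKM with Nutlin-3 and 1.28 ± 0.143 RPKM with DMSO. DCTPP1, which hydrolyses dCTP and its modified forms, averaged 2.90 ± 0.0842 RPKM with Nutlin-3 and 4.23 ± 0.351 RPKM with DMSO. Their log2 changes were -0.57 and -0.48 (limma adjusted p = 1.15e-03 and 1.61e-03). ITPA, which removes inosine nucleotides, rose by 0.20 (limma adjusted p = 9.84e-04).

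Of the 15 other nucleoside and nucleotide kinases tested, 7 rose, 3 fell and 5 did not pass, with a median of 0.09, beside 29.1% rising and 22.5% falling over all genes tested. NME3 and NME4, nucleoside diphosphate kinases, rose by 0.57 and 0.31 and AK1, an adenylate kinase, by 0.31 on the log2 scale. NME3 no longer passed when Nutlin-3 replicate 2 or 3 was left out (limma adjusted p = 0.0677 and 0.0648) or with no filter on low values (0.0624). UCK1 and UCK2, uridine-cytidine kinases, fell by 0.28 and 0.16 on the log2 scale.

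Of 7 tested breakdown enzymes, 3 rose and 1 fell, with a median of 0.10, beside 29.1% rising and 22.5% falling over all genes tested. NT5E, the surface nucleotidase CD73, averaged 16.1 ± 0.333 RPKM with Nutlin-3 and 11.1 ± 0.347 RPKM with DMSO (log2 change 0.52, limma adjusted p = 1.74e-04), and DNPH1, a hydrolase of deoxynucleoside monophosphates, rose by 0.35. PNP, purine nucleoside phosphorylase, fell by 0.30 on the log2 scale. NT5C2, a cytosolic nucleotidase, rose by 0.11, a call lost without Nutlin-3 replicate 1 or 2 or DMSO replicate 2 (adjusted p = 0.0561, 0.0640 and 0.0556). Among 3 carriers the nucleoside transporter gene SLC29A1 fell by 0.19 and 2 did not pass. Among 3 electron donors of the reductase, the thioredoxin reductase gene TXNRD1 rose by 0.24, the glutathione reductase gene GSR fell by 0.14, and thioredoxin itself (TXN) did not pass (log2 change 0.02, limma adjusted p = 0.781).

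All 9 tested genes of the list of regulators fell, with a median of -1.06, beside 22.5% falling over all genes tested. They include CCNA2 and CDK1, whose kinase complexes phosphorylate SAMHD1, and E2F1, an activator of S phase genes, with log2 changes of -1.75, -1.44 and -1.42 (limma adjusted p = 5.33e-05, 7.93e-05 and 6.74e-05). CDK1 averaged 1.86 ± 0.131 RPKM with Nutlin-3 and 5.89 ± 0.503 RPKM with DMSO, and E2F1 averaged 1.14 ± 0.0743 RPKM with Nutlin-3 and 3.89 ± 0.331 RPKM with DMSO (SD, n = 3 each). These genes were listed with earlier results of these data known, so their common direction is not independent evidence.

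**Figure D4:**
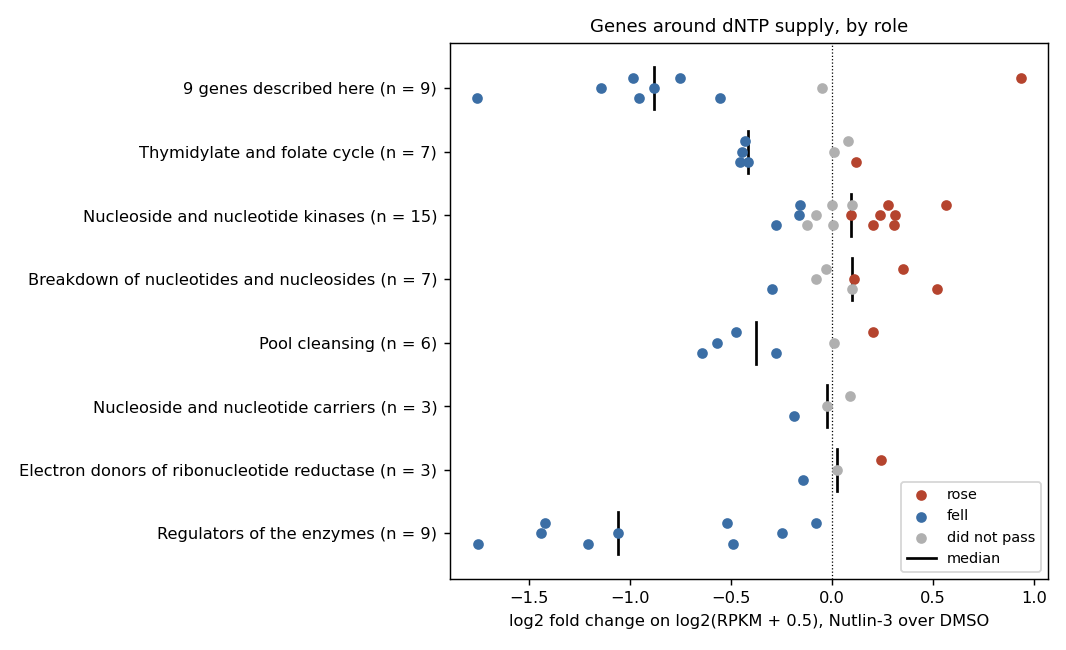
Log2 fold change on log2(RPKM + 0.5), Nutlin-3 over DMSO (horizontal axis), of each tested gene, in rows by role; red points rose, blue points fell, grey points did not pass, and black bars are row medians. The row of the 9 genes has its median at -0.88, beside 0.09 for other kinases, 0.10 for breakdown enzymes, -0.42 for the thymidylate and folate cycle and -0.38 for pool cleansing.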

How the data were processed

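Poly(A) RNA from 3 Nutlin-3 and 3 DMSO samples of RPE1 was made into TruSeq Stranded mRNA libraries, per the labels' protocols. The submitters' processing notes name CASAVA 1.8.2, TopHat2, edgeR and the build hg19. The deposited table holds RPKM made by the authors; which program counted reads, with what annotation and strand setting, is not given in the sources used here. All 6 columns matched 1 title each, and 0 were left unmapped. Low values were whole reads within 0.01 for 90.2% of values with the gene span of GENCODE 29 and for 28.8% with exon length, so reads were recovered from spans. For genes with another span (RRM2, TK1 and SAMHD1 among them) the smallest length that gave whole reads in all libraries was taken, 9091 bases for RRM2. Libraries of a group differed by more than counting noise (chi-square over genes, 1.64 to 4.82 per gene), so none was taken for a copy of another; this does not show that they came from separate cultures.

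The test was limma 3.58.1 (R 4.3.3) on log2(RPKM + 0.5) for genes averaging 0.5 RPKM or more, with a variance trend and no term besides treatment, with Benjamini-Hochberg adjustment over all genes tested. Single values were tested with an exact permutation test over libraries (scipy 1.17.1). limma voom on recovered reads (mean of at least 10) was an alternative. Members and lists were chosen with earlier results of these data known. Genes named from a role list are those past the threshold, up to 3 with the largest rise and 3 with the largest fall, plus the 5 nearest profiles to RRM2 and to RRM2B, the pseudogenes and the overlapping genes. Some genes this rule picks are not reported here. TXN was named after its values were seen. NUDT18 had no ID under that symbol.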

Additional observations from a re-analysis of the deposited data

How the results depend on the processing

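Over 14 alternatives (pseudocounts of 0.1 and 1, no filter or a minimum of 1 RPKM, quantile and median-of-ratios scaling, the replicate number as a block, each library left out, and limma voom on recovered reads), the 8 calls among the 9 genes kept their direction and their side of the threshold wherever the gene was tested, with adjusted p of at most 5.55e-03, and SAMHD1 did not pass in any (adjusted p between 0.142 and 0.647). DCK and SAMHD1 are not tested at a minimum of 1 RPKM. The library sizes behind the RPKM, also used for limma voom, were 0.961 to 0.980 times the recovered reads with Nutlin-3 and 1.03 to 1.05 times with DMSO. Plain read totals, which would move every log2 change downwards, were not tried, so the call of SAMHD1 under them is not known. The fall of RRM2 lay between -1.82 and -1.69 and the rise of RRM2B between 0.75 and 1.26 on the log2 scale. The count of all genes called was 6296, and limma voom, which tests more genes, called 10425. The replicate numbers did not pair the libraries (correlations of same-numbered deviations were -0.0246, 0.0079 and 0.0174), and with the replicate block 5135 genes were called, 7 of the 9 genes fell and RRM2B rose. An exact permutation test by sign flips within the 3 same-numbered pairs gave p = 0.25, the smallest it allows, for RRM2B minus RRM2 and for the RRM2B share. Leaving out each library moved the difference of RRM2B minus RRM2 between 2.62 and 2.73 and the difference of the share between 39.3 and 40.3 percentage points. The difference of the share was 18.6 points on deposited RPKM, 33.7 with principal transcripts and 40.4 on reads without length. Of 487 values for 35 other named genes, 13 lost their call and 0 reversed. DCTD, NME3 and NT5C2 are among those that lost a call, and DCTD and NT5C2 also lost theirs with the replicate block (adjusted p = 0.0744 and 0.0779). Depth did not limit the members, with at least 745 reads per library each.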

Other observations

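The filter on RPKM, which is low for long genes, left out 17 of the 58 listed dNTP supply genes with an ID. On recovered reads 15 of these could be tested. The following genes were chosen after their values were seen. ADK, adenosine kinase, whose long gene gave 0.165 RPKM with Nutlin-3 and 0.214 RPKM with DMSO, had between 2700 and 3386 reads per Nutlin-3 library and between 3814 and 4660 per DMSO library, and fell by 0.37 on the log2 scale (limma voom adjusted p = 3.55e-07). GLRX, glutaredoxin, the other electron donor of ribonucleotide reductase, rose by 0.45 (limma voom adjusted p = 4.23e-07).

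The mitochondrial nucleotidase gene NT5M had 33, 51 and 40 reads with Nutlin-3, against 116, 84 and 82 with DMSO, and changed by -1.09 (limma voom adjusted p = 5.16e-06). The carriers SLC29A3 and SLC28A3 changed by 0.81 and 0.78 (limma voom adjusted p = 1.25e-04 and 1.15e-03) on between 42 and 94 and between 26 and 69 reads per library. The repressor gene E2F8, in the list of regulators, had 83, 67 and 81 reads with Nutlin-3, against 535, 346 and 374 with DMSO. TYMSOS, the noncoding gene that starts beside TYMS on the opposite strand, changed by 0.42 (limma voom adjusted p = 0.0172) while TYMS changed by -0.94. TYMSOS had only between 100 and 113 reads per Nutlin-3 library and between 62 and 119 per DMSO library. It shares 18.75% of its exon length with TYMS, and whether counting used strand is not known.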
